A study of Mus musculus with 12 samples.

Results

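The genes described here are 40 genes of the cell division cycle and of DNA replication, read on arrays from RAW264.7, a line of mouse macrophages that keeps dividing in culture, after 24 h with or without palmitic acid and recombinant FABP4. They were taken by gene name from the 34797 names on the array and form 23 mitotic genes, 16 replication genes and the cyclin gene Ccnd1. The 4 groups were palmitic acid (0.2 mM) with FABP4 (200 nM), palmitic acid alone, FABP4 alone and control with neither, with 3 arrays each, and every group, controls included, received medium with BSA free of fatty acids. Palmitic acid is a major saturated fatty acid of the body, and FABP4 is a small carrier of fatty acids that adipocytes and macrophages make. RAW264.7 is a transformed line that divides continuously, unlike most tissue macrophages. Of the 40 genes, 37 were bright enough to test, and those 37 were well above background on all 12 arrays. Aurkb, the kinase of the chromosomal passenger complex, and Cenpf, a kinetochore protein, were well above background on 1 array each, and Ccne2, which encodes cyclin E2, on 0 arrays, so these 3 have no result here.

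Cells copy their DNA in S phase and divide it in mitosis, and different genes serve these steps. Replication genes build and load the MCM helicase, supply nucleotides and run the fork, and their transcription is driven largely by E2F factors around the entry to S phase. Mitotic genes encode cyclins A and B with their kinase Cdk1, the spindle and its checkpoint, the kinetochore and the machinery of cytokinesis, and their transcription peaks later, in G2 and mitosis. In that program the DREAM and MuvB complexes act through the cell cycle homology region, a short promoter element, often beside CCAAT boxes bound by NF-Y. D-type cyclins respond to growth factors and lead cells out of G1. In RNA from whole cultures, fewer cells in a phase and less RNA per cell cannot be told apart.

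Levels are given as log2 intensity minus the 75th percentile of the same array, so they are relative to the array and are not compared between genes. Fold changes are log2 differences ± SE from limma, with 3 arrays per group, and a gene passed at an adjusted p under 0.05 over all 17595 tested genes. Whether each array had its own culture is not given in the labels, so the p-values reflect the spread among these arrays alone, which may be technical. The arrays lay on 2 slides. Slide 2 held all 6 arrays with palmitic acid and FABP4 arrays 2 and 3, and slide 1 held FABP4 array 1 and the 3 controls. On slide 2, FABP4 arrays 2 and 3 and palmitic acid arrays 1 and 2 lay in row 1. Palmitic acid array 3 and the 3 arrays with both agents lay in row 2. Each array had 59305 spots, of which 42.8% to 46.7% were well above background and 0 were saturated, and correlations between arrays ran from 0.9915 to 0.9974. Of 8 macrophage markers named on the array 7, including Csf1r, Cd68 and Itgam, were well above background on all 12 arrays, and Mertk on 0. Of the markers of other cells, 0 of 4 epithelial, 1 of 6 fibroblast (Col1a2), 1 of 5 adipocyte (Retn) and 2 of 6 lymphocyte genes (Cd3e and Cd79a) were detected on all 12, and the other 4 lymphocyte genes on at most 1 array. Of 6 osteoclast markers, which this line can also express, 4 were detected on all 12. Their part in the results was not tested.

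Palmitic acid without FABP4 was set against control to ask what the fatty acid does to the cell cycle genes of these macrophages. Most mitotic genes were lower with palmitic acid, and the replication genes centred near 0. Of the 37 genes 19 fell, 0 rose and 18 did not pass. Over all tested genes 8.61% passed, 3.73% as lower and 4.88% as higher. Of the 21 mitotic genes 16 fell, and all 21 had log2 fold changes below 0, between -0.49 and -0.05 with a median of -0.28, while the median over all tested genes was 0.0005 and 49.9% lay below 0. Of the 15 replication genes 2 fell, and their median was -0.03. The whole of this comparison lay between the slides, palmitic acid on slide 2 and control on slide 1.

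**Figure D1:**
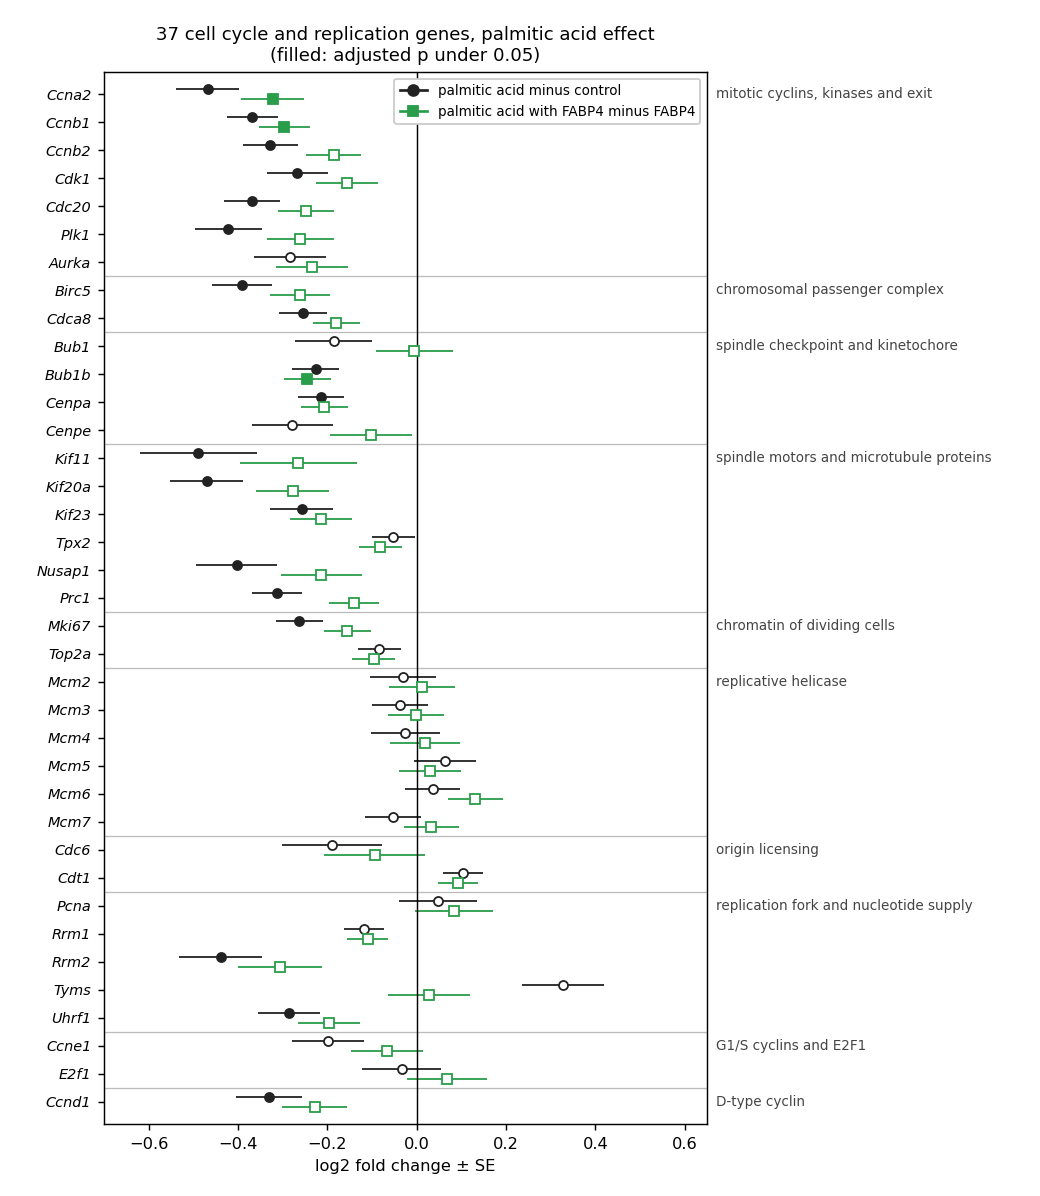
Log2 fold change ± SE from limma (x axis) of the 37 tested genes (rows, grouped by role) for palmitic acid minus control (black circles) and palmitic acid with FABP4 minus FABP4 (green squares), with filled symbols at an adjusted p under 0.05. All 21 mitotic genes, in the upper 5 blocks, lie left of 0 in both comparisons, with medians of -0.28 and -0.21, while the 6 Mcm genes scatter around 0. The fit shown has no slide term. With one, 19 and 20 of the 21 lie below 0, as do 7407 and 5986 of all 17595 genes. All 6 Mcm genes then lie above 0.

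Of 7 genes of mitotic cyclins, their kinases and mitotic exit 6 fell and Aurka did not pass. In all 7 the palmitic acid arrays lay wholly below the control arrays, as in 16.4% of all genes. Ccna2 had levels of 1.44, 1.52 and 1.38 with palmitic acid and FABP4 and of 1.38, 1.40 and 1.35 with palmitic acid, against 1.92, 1.68 and 1.71 with FABP4 and 1.92, 1.77 and 1.84 in controls. Ccna2 encodes cyclin A2, which acts in S phase and up to mitosis, and its probe lies at chr3:36463978-36464037 (mm9). All 6 of its arrays with palmitic acid lay below every array without it. The share of all genes with such a separation was not counted, here or for the genes that follow. It fell by 0.47 ± 0.07 on the log2 scale (1.38-fold, adjusted p = 0.00536). The levels of Ccnb1 were 2.50, 2.41 and 2.49 on the arrays with both agents, 2.25, 2.32 and 2.36 with palmitic acid, 2.86, 2.69 and 2.73 with FABP4 and 2.64, 2.68 and 2.71 in controls. Ccnb1 encodes cyclin B1, the partner of Cdk1 at mitotic entry, with its probe at chr13:101548722-101548781, and all 6 arrays with palmitic acid lay below all 6 without it. It fell by 0.37 ± 0.06 against control (1.29-fold, adjusted p = 0.00564). Ccnb2 lay at 4.00, 3.94 and 4.00 with both agents and at 3.94, 3.91 and 3.89 with palmitic acid, compared with 4.31, 4.08 and 4.11 with FABP4 and 4.28, 4.22 and 4.21 in controls. Ccnb2, the other B-type cyclin gene, was again lower on each palmitic acid array than on any array without it, and it fell by 0.33 ± 0.06 (adjusted p = 0.0114).

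The levels of Cdk1 were 2.63, 2.53 and 2.69 on the arrays with both agents, 2.43, 2.53 and 2.58 with palmitic acid, 2.91, 2.72 and 2.68 with FABP4 and 2.78, 2.79 and 2.77 in controls. Cdk1 is the kinase that these cyclins activate. Its palmitic acid arrays lay below all control and FABP4 arrays, whereas the arrays with both agents overlapped the FABP4 arrays. Cdk1 fell by 0.27 ± 0.07 against control (adjusted p = 0.0412). Cdc20 had levels of 3.65, 3.61 and 3.51 with palmitic acid and FABP4 and of 3.45, 3.60 and 3.61 with palmitic acid, against 3.93, 3.79 and 3.81 with FABP4 and 3.97, 3.90 and 3.90 in controls. Cdc20, with its probe at chr4:118105534-118105593, activates the anaphase-promoting complex and so starts mitotic exit. Its arrays with palmitic acid did not overlap those without, and it fell by 0.37 ± 0.06 (adjusted p = 0.0079). Plk1 lay at 3.50, 3.61 and 3.51 with both agents and at 3.27, 3.56 and 3.53 with palmitic acid, compared with 3.86, 3.74 and 3.81 with FABP4 and 3.86, 3.86 and 3.91 in controls. Plk1, a kinase of mitotic entry and spindle assembly, had its lowest level on palmitic acid array 1. It fell by 0.42 ± 0.07 (1.34-fold, adjusted p = 0.00946). Aurka, the centrosomal Aurora kinase, had -0.28 ± 0.08 and did not pass (adjusted p = 0.0569).

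Both tested genes of the chromosomal passenger complex, which corrects the attachment of chromosomes to the spindle, fell. The levels of Birc5 were 4.65, 4.71 and 4.76 on the arrays with both agents, 4.57, 4.55 and 4.65 with palmitic acid, 5.11, 4.89 and 4.90 with FABP4 and 5.01, 4.91 and 5.02 in controls. Birc5 encodes survivin, a subunit of that complex, and its probe lies at chr11:117716978-117717037. Its groups with and without palmitic acid did not overlap, and it fell by 0.39 ± 0.07 (1.31-fold, adjusted p = 0.0082). Cdca8 lay at 4.41, 4.34 and 4.29 with both agents and at 4.24, 4.32 and 4.29 with palmitic acid, compared with 4.61, 4.48 and 4.49 with FABP4 and 4.57, 4.50 and 4.55 in controls. Cdca8 encodes borealin, and it fell by 0.25 ± 0.05 (adjusted p = 0.0187) with the palmitic acid arrays again below all arrays without it. Of 4 tested genes of the spindle checkpoint and the kinetochore 2 fell. They were Bub1b, a checkpoint kinase-like protein, with -0.23 ± 0.05 (adjusted p = 0.0291), and Cenpa, the centromeric histone, with -0.21 ± 0.05 (adjusted p = 0.0321). The checkpoint kinase gene Bub1 had -0.19 and the kinetochore motor Cenpe -0.28, and neither passed (adjusted p = 0.202 and 0.0855).

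Of 6 motors and microtubule proteins of the spindle 5 fell. Kif20a had levels of 1.03, 1.02 and 1.00 with palmitic acid and FABP4 and of 0.75, 0.79 and 0.98 with palmitic acid, against 1.45, 1.23 and 1.20 with FABP4 and 1.28, 1.24 and 1.41 in controls. Kif20a, a kinesin of cytokinesis, was lower on every array with palmitic acid than on any without, and it fell by 0.47 ± 0.08 (adjusted p = 0.00849). Prc1 lay at 2.88, 2.89 and 2.87 with both agents and at 2.77, 2.71 and 2.77 with palmitic acid, compared with 3.08, 2.90 and 3.08 with FABP4 and 3.02, 3.07 and 3.11 in controls. Prc1 bundles the microtubules of the central spindle. Its palmitic acid arrays lay below all others, whereas the arrays with both agents lay just below the lowest FABP4 array. It fell by 0.31 ± 0.06 (adjusted p = 0.00977). Kif11, the kinesin that pushes spindle poles apart, had the largest change of the mitotic genes with -0.49 ± 0.13 (adjusted p = 0.0466), and Nusap1, a spindle-binding protein, had -0.40 ± 0.09 (adjusted p = 0.0248). Kif23, a subunit of centralspindlin, fell by 0.26 ± 0.07 (adjusted p = 0.0495). Tpx2, which activates Aurora A on the spindle, had -0.05 ± 0.05 and overlapping groups (adjusted p = 0.523).

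Of 2 genes for proteins of dividing chromatin 1 fell, Mki67, and Top2a did not pass. The levels of Mki67 were 4.53, 4.52 and 4.45 on the arrays with both agents, 4.43, 4.41 and 4.47 with palmitic acid, 4.75, 4.60 and 4.62 with FABP4 and 4.67, 4.67 and 4.75 in controls. Mki67 encodes Ki-67, the proliferation marker that coats mitotic chromosomes. Its groups with and without palmitic acid did not overlap, and it fell by 0.26 ± 0.05 (1.20-fold, adjusted p = 0.0147). Top2a had levels of 2.39, 2.42 and 2.43 with palmitic acid and FABP4 and of 2.44, 2.46 and 2.40 with palmitic acid, against 2.58, 2.48 and 2.48 with FABP4 and 2.45, 2.54 and 2.56 in controls. Top2a, the topoisomerase that untangles sister chromosomes, had -0.08 ± 0.05 against control with overlapping groups, and it did not pass (adjusted p = 0.299).

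**Figure D2:**
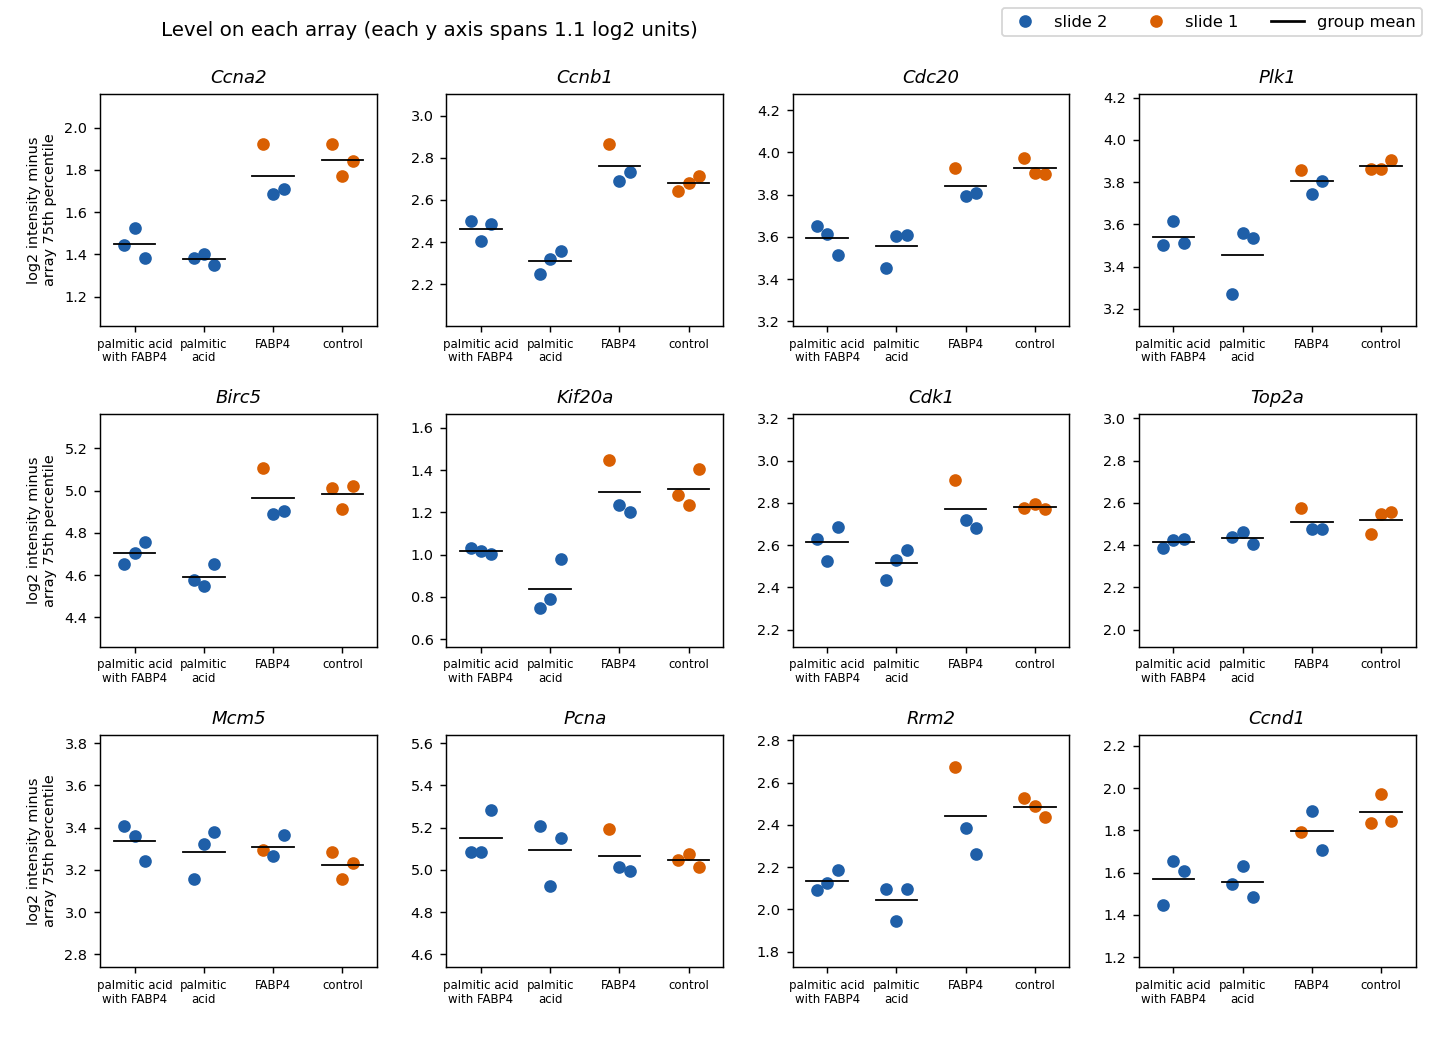
Level on each array (y axis, log2 intensity minus the array's 75th percentile) of 12 genes, 1 panel each, for the 4 groups (x axis) with the group mean as a bar and the slide as the colour. For Ccna2, Ccnb1, Cdc20, Plk1, Birc5, Kif20a, Rrm2 and Ccnd1 all 6 arrays with palmitic acid lie below the 6 without it. The share of all genes so separated was not counted. For Mcm5 and Pcna the arrays with and without it overlap.

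The replicative helicase showed no change that passed. All 6 subunit genes, Mcm2 to Mcm7, had log2 fold changes between -0.05 and 0.06, and the lowest adjusted p among them was 0.607. Mcm5 lay at 3.41, 3.36 and 3.24 with both agents and at 3.16, 3.32 and 3.38 with palmitic acid, compared with 3.29, 3.26 and 3.37 with FABP4 and 3.28, 3.16 and 3.23 in controls. Mcm5 had 0.06 ± 0.07, with a 95% confidence interval from -0.09 to 0.22, and its 4 groups overlapped. Across the 6 genes the intervals reached no lower than -0.20 and no higher than 0.22, so falls like that of Ccna2 lay outside the intervals of this fit. With the slide as a fixed block all 6 lay above 0, between 0.04 and 0.24 with a median of 0.13, which goes past the upper limit above for Mcm2 (0.22) and Mcm4 (0.24), and neither passed in limma (adjusted p = 0.303 and 0.315). Pcna had levels of 5.09, 5.08 and 5.28 with palmitic acid and FABP4 and of 5.21, 4.92 and 5.15 with palmitic acid, against 5.19, 5.01 and 5.00 with FABP4 and 5.05, 5.08 and 5.01 in controls. Pcna, the sliding clamp of the fork, had 0.05 ± 0.09 (interval -0.15 to 0.24, adjusted p = 0.768), with palmitic acid array 2 as its lowest array. Of the genes that license origins, Cdt1 had 0.10 ± 0.04 and Cdc6 -0.19 ± 0.11, and neither passed (adjusted p = 0.173 and 0.316). With the slide block Cdc6 changed sign, to 0.27 (adjusted p = 0.30).

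The 2 replication genes that fell act on nucleotides and on chromatin. Rrm2, the regulated subunit of ribonucleotide reductase, fell by 0.44 ± 0.09 (adjusted p = 0.0196). The levels of Rrm2 were 2.09, 2.12 and 2.19 on the arrays with both agents, 2.10, 1.95 and 2.09 with palmitic acid, 2.67, 2.38 and 2.26 with FABP4 and 2.53, 2.49 and 2.44 in controls. Its palmitic acid arrays lay below every array without it. The other subunit gene, Rrm1, had -0.12 ± 0.05 (adjusted p = 0.129). Uhrf1, which keeps DNA methylation on newly copied strands, fell by 0.29 ± 0.07 (adjusted p = 0.0326). Tyms, thymidylate synthase, ran the other way with 0.33 ± 0.09, just short of the threshold (adjusted p = 0.0548).

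At the entry to S phase neither tested regulator passed. Ccne1 lay at 1.50, 1.45 and 1.51 with both agents and at 1.32, 1.40 and 1.37 with palmitic acid, compared with 1.60, 1.42 and 1.65 with FABP4 and 1.39, 1.66 and 1.64 in controls. Ccne1 encodes cyclin E1, and it had -0.20 ± 0.08 with control array 1 inside the range of the palmitic acid arrays (adjusted p = 0.149). E2f1 had levels of 0.29, 0.14 and 0.38 with palmitic acid and FABP4 and of 0.10, 0.29 and 0.22 with palmitic acid, against 0.09, 0.38 and 0.14 with FABP4 and 0.17, 0.29 and 0.25 in controls. E2f1, which encodes a transcription factor of S phase genes, had -0.03 ± 0.09 (adjusted p = 0.847) and overlapping groups. The levels of Ccnd1 were 1.45, 1.65 and 1.61 on the arrays with both agents, 1.55, 1.63 and 1.49 with palmitic acid, 1.79, 1.89 and 1.71 with FABP4 and 1.84, 1.97 and 1.85 in controls. Ccnd1 encodes cyclin D1, the growth factor-responsive cyclin of G1. Its arrays with palmitic acid did not overlap those without, and it fell by 0.33 ± 0.07 (1.26-fold, adjusted p = 0.023).

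These calls depended on the slide and on single arrays. With the slide as a fixed block, FABP4 array 1 alone carries the difference between slides. In this limma fit 0 of the 37 genes passed, where 0.784% of all genes did. At an unadjusted p under 0.05, 6 of the 37 were lower, as were 998 of all 17595 genes. The mitotic median was then -0.12, the replication median 0.09 and that of all genes 0.04, and with the slide as a random block, where 0 passed as well, the mitotic median was -0.21. With the fixed block 19 of the 21 mitotic genes lay below 0, as did 7407 of all 17595 genes. Bub1 and Top2a changed sign, to 0.13 and 0.02. Without palmitic acid array 1, 2 or 3 the count was 11, 10 or 12, without control array 1, 2 or 3 it was 9, 12 (11 lower) or 8, and without FABP4 array 1 it was 22. The calls of Ccna2, Ccnb1, Ccnb2, Cdc20, Plk1, Birc5, Kif20a and Prc1 passed whichever of the 12 arrays was left out.

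Palmitic acid in the presence of FABP4 was set against FABP4 alone, a comparison that shares no array with the one above. The mitotic genes again lay below 0, and few of them passed. Of the 37 genes 3 fell and 0 rose, where 3.81% of all tested genes passed, 0.943% as lower and 2.86% as higher. The 3 were Ccna2 with -0.32 ± 0.07, Ccnb1 with -0.30 ± 0.06 and Bub1b with -0.24 ± 0.05 (adjusted p = 0.0363, 0.0208 and 0.0341). All 21 mitotic genes lay below 0, with a median of -0.21, against a median of 0.05 over all genes and 36.7% of them below 0. Once the slide was a fixed block 20 of the 21 did, as did 5986 of all 17595 genes, and Bub1 was at 0.10. The replication genes had a median of 0.02, and 6 of 15 lay below 0. In 16 of the 21 mitotic genes and 3 of the 15 replication genes the arrays with both agents lay wholly below the FABP4 arrays, as did 6.96% of all genes, and in 2 of the 15 wholly above them, as did 19.3%. For palmitic acid without FABP4 such separation from control was found in 19 of 21, in 4 of 15 and in 16.4%, and 2 of the 15, against 17.5% of all genes, lay wholly above.

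Cdc20 had -0.25 ± 0.06, Plk1 -0.26 ± 0.07 and Birc5 -0.26 ± 0.07 with FABP4 present, and these 3 did not pass (adjusted p = 0.0591, 0.0909 and 0.0635). Mki67 had -0.16 and Top2a -0.10, also short of the threshold. Bub1, at -0.01, was the mitotic gene nearest to 0. The 6 Mcm genes had values between -0.001 and 0.13, with a lowest adjusted p of 0.256, and Rrm2 had -0.31 ± 0.09 and Ccnd1 -0.23 ± 0.07 (adjusted p = 0.107 and 0.122). The number of falls moved with the scaling, from 3 to 12 with quantile normalization and to 15 with the percentile taken over probes detected on all arrays, where the median over all genes was 0.01 and 0.009. It was 0 without any of the 3 arrays with both agents, 1 without any of the 3 FABP4 arrays, and 1 without palmitic acid array 3 or control array 3. With the slide as a fixed block 1 gene passed, Ccnb1, where 3.35% of all genes did, and 0 passed when only arrays of slide 2 were used.

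Slide 2 held both palmitic acid and FABP4 arrays, which allows a view within 1 slide. The arrays with both agents lay in another row of it than FABP4 arrays 2 and 3. Between these, palmitic acid and the row cannot be told apart. On slide 2, all 6 arrays with palmitic acid lay below FABP4 arrays 2 and 3 in 16 of the 21 mitotic genes. They did so in 3 of the 15 replication genes, Rrm1, Rrm2 and Uhrf1, and in 5.83% of all genes. They lay above them in 1, Cdt1, as in 14.4% of all genes. Palmitic acid without FABP4 minus those 2 FABP4 arrays, a contrast chosen after seeing the data that also differs in FABP4, had a mitotic median of -0.20 and a replication median of 0.03. Of the mitotic genes Ccnb1 passed (-0.40 ± 0.06, adjusted p = 0.0264), where 0.358% of all genes passed as lower, and 16 of 21 were lower at an unadjusted p under 0.05, as were 5.91% of all genes. Within the first row of slide 2, palmitic acid arrays 1 and 2 minus FABP4 arrays 2 and 3 gave medians of -0.22 and 0.004. FABP4 array 1, on slide 1, lay above the other 2 FABP4 arrays in 20 of 21 mitotic genes and 11 of 15 replication genes, as in 50.9% of all genes, by medians of 0.15, 0.13 and 0.05.

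The gap between the 2 classes on 1 array does not depend on a scaling factor common to that array. The mitotic median minus the replication median, each relative to the mean of the controls, was -0.19, -0.22 and -0.26 on the arrays with both agents and -0.23, -0.21 and -0.24 on those with palmitic acid. It was 0.01, -0.04 and -0.02 on the FABP4 arrays and 0.01, -0.03 and 0.02 in controls. The 6 arrays with palmitic acid lay apart from the 6 without it. On slide 2 the only arrays without it were 2 FABP4 arrays, at -0.04 and -0.02, and these stood nearer to the controls. The genes of both classes were chosen with earlier results of these data known, so this separation is not an independent test. The cause of the gap was not tested. As a difference of medians of fold changes the gap was -0.25 for palmitic acid without FABP4 and -0.23 with FABP4, and with the slide as a fixed block -0.22 and -0.19. FABP4 array 1 was higher than the controls in both classes, by medians of 0.09 and 0.07, and its gap was 0.01.

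**Figure D3:**
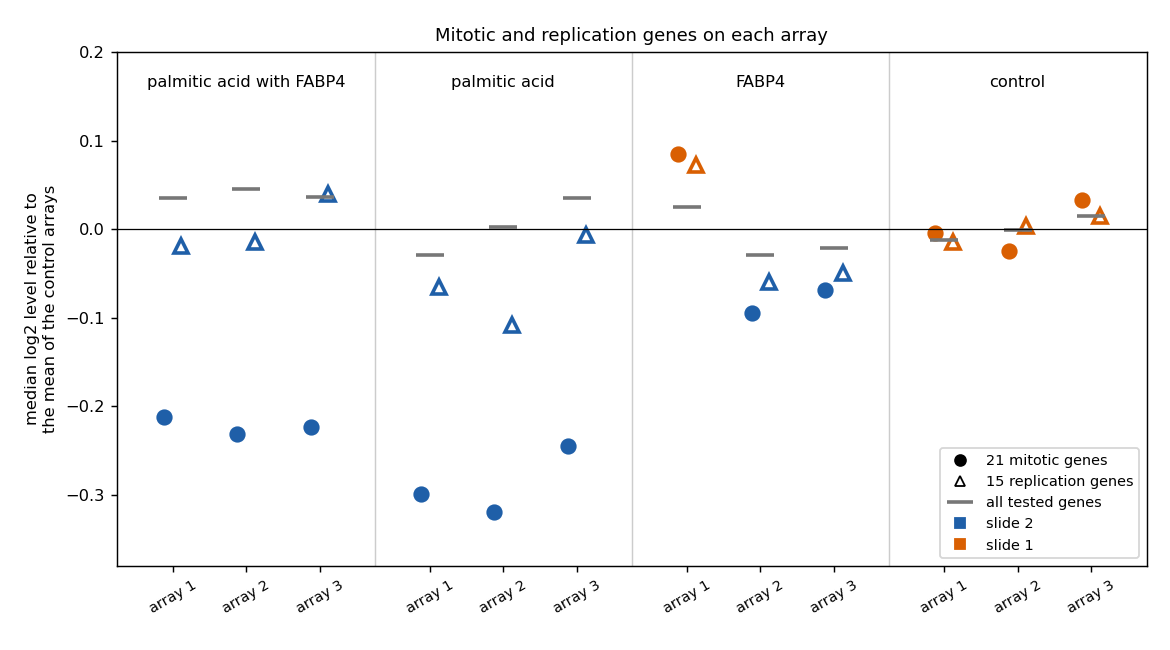
Median level of the 21 mitotic genes (filled circles), the 15 replication genes (open triangles) and all tested genes (grey bars) on each of the 12 arrays (x axis), as the log2 difference from the mean of the control arrays (y axis), with the slide as the colour. The mitotic medians lie between -0.32 and -0.21 on the 6 arrays with palmitic acid and between -0.09 and 0.09 on the 6 without it, and the replication medians between -0.11 and 0.07 on all 12.

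The promoters of both classes were searched for the short elements named above, since most mitotic genes fell and most replication genes did not pass. The promoter table, from RefSeq with build GRCm38.p6, gives 250 bases before and 50 after a gene's start and held 33 of the 40 genes. Aurkb, Ccna2, Ccnd1, Ccne2, Kif20a, Mcm4 and Tpx2 were not matched. Searched on both strands were TTTGAA and TTCGAA as words of the cell cycle homology region, TTTGGCG and TTTCCCG as E2F-like words, and CCAAT. A word of the homology region was found in 15 of 19 mitotic promoters (78.9%), in 2 of 14 replication promoters (14.3%) and in 19.4% of the 27025 promoters in the table. In 14 of those 15 at least 1 such word lay in the last 50 bases before the start or after it, in 0 of the 2, and in 1430 of the 5254 promoters of the whole table that held the word. All 15 also held CCAAT, which was found in 89.5% of mitotic, 64.3% of replication and 37.9% of all promoters, and 7.7% of all promoters held both. An E2F-like word was found in 2 of 19 mitotic (10.5%), 6 of 14 replication (42.9%) and 4.98% of all promoters. A match is a run of letters and not evidence of binding.

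The stretches below run from 130 bases before the start to 30 after it, 5′ to 3′ on the gene's strand, with matches to any of these words in capitals. The first 4 are the genes with the smallest p among those that fell with a homology region word inside the window, chosen to show it. Ccnb1 is given as a gene that fell in both comparisons and holds neither TTTGAA nor TTCGAA. Other forms of the element were not searched. The first listed start was used where a gene had several.
Cdc20, chr4:118437314-118437473, minus strand: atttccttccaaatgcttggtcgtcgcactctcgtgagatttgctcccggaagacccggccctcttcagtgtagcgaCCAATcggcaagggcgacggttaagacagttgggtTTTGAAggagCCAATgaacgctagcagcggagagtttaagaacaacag
Prc1, chr7:80294321-80294480, plus strand: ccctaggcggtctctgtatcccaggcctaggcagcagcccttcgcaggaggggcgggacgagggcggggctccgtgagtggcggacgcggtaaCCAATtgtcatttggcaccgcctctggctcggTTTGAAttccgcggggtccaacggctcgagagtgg
Ccnb2, chr9:70421525-70421684, minus strand: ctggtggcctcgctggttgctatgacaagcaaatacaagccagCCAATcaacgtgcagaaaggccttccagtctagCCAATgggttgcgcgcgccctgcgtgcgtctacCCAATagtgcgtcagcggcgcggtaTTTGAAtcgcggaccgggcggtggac
Mki67, chr7:135716350-135716509, minus strand: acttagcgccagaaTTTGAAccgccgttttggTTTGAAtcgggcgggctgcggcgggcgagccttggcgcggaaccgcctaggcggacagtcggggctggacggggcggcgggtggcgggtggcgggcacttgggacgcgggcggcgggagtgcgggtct
Ccnb1, chr13:100786457-100786616, minus strand: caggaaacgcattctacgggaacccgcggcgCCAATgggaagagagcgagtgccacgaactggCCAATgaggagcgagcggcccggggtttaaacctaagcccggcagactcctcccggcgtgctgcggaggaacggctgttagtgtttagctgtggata
In Cdc20, Prc1 and Ccnb2 the word TTTGAA lies at -18, -5 and +5 counted from the start, with CCAAT upstream of it, and in Mki67 it occurs at -116 and -98. The Ccnb1 window holds CCAAT at -99 and -67 and none of the other words searched.

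For the replication genes the 2 with an E2F-like word inside the same window are given, and E2f1 as a gene with none of the words searched. Other forms of the E2F-like words were not searched, so their absence from E2f1 is not shown.
Mcm3, chr1:20820283-20820442, minus strand: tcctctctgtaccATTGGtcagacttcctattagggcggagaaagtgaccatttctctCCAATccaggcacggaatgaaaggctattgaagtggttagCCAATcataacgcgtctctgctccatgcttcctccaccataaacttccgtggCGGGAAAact
Mcm6, chr1:128359676-128359835, minus strand: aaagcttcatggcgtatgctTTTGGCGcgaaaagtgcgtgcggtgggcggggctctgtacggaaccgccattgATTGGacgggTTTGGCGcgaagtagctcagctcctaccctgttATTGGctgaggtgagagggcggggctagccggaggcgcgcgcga
E2f1, chr2:154569397-154569556, minus strand: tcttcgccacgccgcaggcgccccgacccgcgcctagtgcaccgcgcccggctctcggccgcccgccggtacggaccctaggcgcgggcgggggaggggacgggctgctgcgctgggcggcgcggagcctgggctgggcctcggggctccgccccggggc
Mcm6 holds TTTGGCG at -110 and at -47, Mcm3 holds the complement of TTTCCCG at +21, and neither holds TTTGAA or TTCGAA. The fold changes of Mcm3 and Mcm6 were -0.04 and 0.04 for palmitic acid without FABP4. Cdc20, Prc1, Ccnb2 and Mki67 were picked among genes that fell, so their falls cannot be set against these values. Whether the words go with the fold changes was not tested.

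Several genes carried more than 1 probe, which gives a further reading of the same gene. For Birc5, Mcm3, Tpx2 and Uhrf1 a further probe was listed under another transcript record than the probe used. Not all stretches were separate, and the Mcm3 probes, at chr1:20793119-20793178 and chr1:20793136-20793195, overlap. The 40 genes had 54 probes, 29 genes had 1, and 8 tested genes had 10 further probes past the filter. For palmitic acid without FABP4, 7 of these 10 had the sign of the probe used. The further probes of Birc5 had -0.29 ± 0.07 and -0.34 ± 0.06, that of Cdca8 had -0.26 ± 0.05 and that of Mki67 -0.26 ± 0.07. Those of Ccnb1 had -0.20 ± 0.07 and -0.16 ± 0.08, closer to 0 than the -0.37 of its brightest probe. The second Cdk1 probe, which shares 41 of its 60 bases with the first and was 11.9 times dimmer, had 0.06 ± 0.08, so the fall of Cdk1 was not seen on it. The dim second probes of Tpx2 and Uhrf1 had 0.39 ± 0.34 and 0.27 ± 0.55, within 2 SE of 0.

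Further probes of Ccnb1, Birc5 and Cdca8 are given below to show where these second readings come from, as the sequence in the array's design with the mm9 positions of the file headers.
Ccnb1, chr13:101551224-101551283, minus strand: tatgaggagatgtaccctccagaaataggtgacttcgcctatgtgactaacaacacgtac
Ccnb1, chr13:101553449-101553508, minus strand: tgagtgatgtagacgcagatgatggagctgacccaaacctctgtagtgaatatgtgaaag
Cdca8, chr4:124599245-124599304, minus strand: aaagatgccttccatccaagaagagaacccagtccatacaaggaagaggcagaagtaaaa
Birc5, chr11:117711112-117711171, plus strand: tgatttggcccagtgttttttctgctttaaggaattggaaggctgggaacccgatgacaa
With FABP4 present the same 4 probes had -0.21, -0.27, -0.21 and -0.34 for palmitic acid.

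Beyond the 40 genes, 103 other cell cycle genes were read in the same fit, of which 95 were tested. For palmitic acid without FABP4, 2 rose and 19 fell, with a median of -0.16, where 4.88% of all tested genes passed as higher and 3.73% as lower and the median was 0.0005. With FABP4 1 rose and 9 fell, with a median of -0.11, where 2.86% of all genes passed as higher and 0.943% as lower and the median was 0.05. Most of the genes that passed as lower were mitotic. Of 33 other mitotic genes 13 fell without FABP4 and 7 with it, with medians of -0.25 and -0.18. With the slide as a fixed block these medians were -0.02 and -0.12, where those of all genes were 0.04 and 0.06. Without FABP4 all 33 lay below 0, and 20 did so once the slide was a block. With FABP4 31 did, and 29 with the block. Over the 95 genes the medians with the block were 0.005 and -0.05. Of 20 polymerases, fork proteins and nucleotide enzymes 1 fell without FABP4, Tk1, and 1 rose, the clamp loader gene Rfc3, while of 11 genes of origin firing 1 fell, Gmnn, whose product geminin holds Cdt1 in check. On slide 2 all 6 arrays with palmitic acid lay below both FABP4 arrays in 14 of the 33 other mitotic genes, in 4 of the 20 polymerase, fork and nucleotide genes and in 0 of the 11 origin firing genes, as in 5.83% of all genes. They lay above both in 0 of the 33, 1 of the 20 and 2 of the 11, as in 14.4% of all genes. Without FABP4, 19 of those 20 genes and 9 of those 11 also lay below 0, against 49.9% of all genes. Their medians were -0.09 and -0.06. With FABP4, 14 and 9 did so, with medians of -0.10 and -0.07, against 36.7% of all genes. Once the slide was a fixed block, 10 and 3 lay below 0 without FABP4, and 14 and 5 with it.

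**Figure D4:**
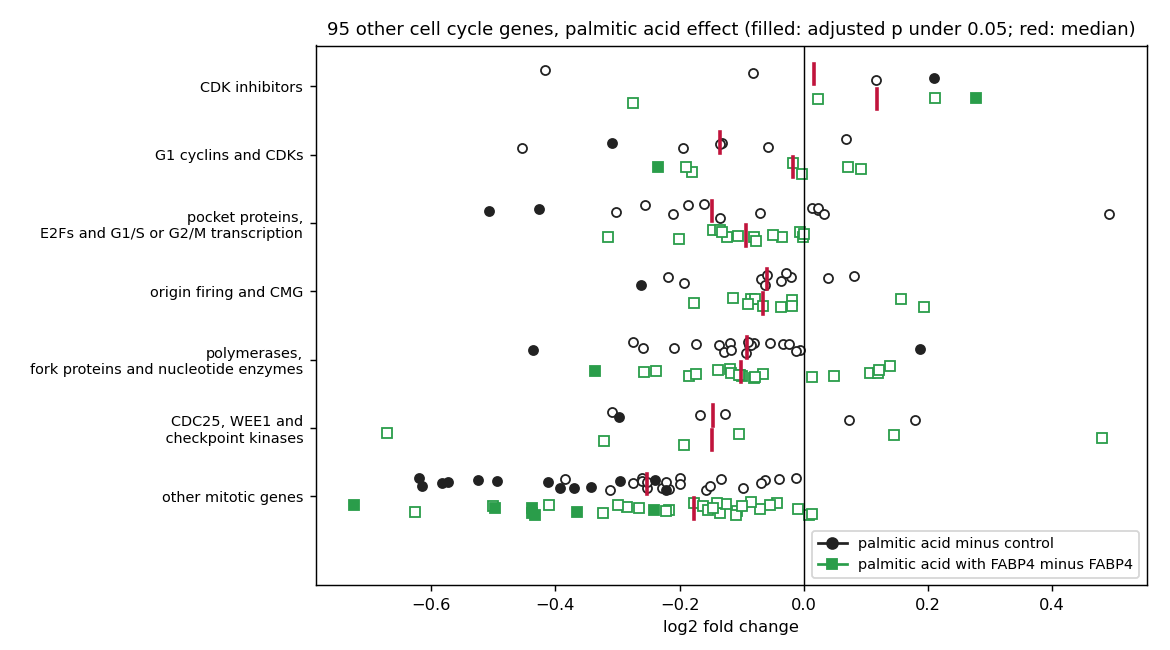
Log2 fold change (x axis) of 95 other cell cycle genes by role (rows) for palmitic acid minus control (black circles) and palmitic acid with FABP4 minus FABP4 (green squares), with filled symbols at an adjusted p under 0.05 and the median of each row in red. The other mitotic genes, in the lowest row, have medians of -0.25 and -0.18, and 13 and 7 of the 33 passed. The fit shown has no slide term. With one, these medians are -0.02 and -0.12, and 20 and 29 of the 33 lie below 0.

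The gene that rose in both comparisons was Cdkn1b, which encodes p27, an inhibitor of the cyclin-dependent kinases. Cdkn1b had levels of 2.40, 2.50 and 2.48 with palmitic acid and FABP4 and of 2.47, 2.46 and 2.52 with palmitic acid, against 2.17, 2.18 and 2.18 with FABP4 and 2.28, 2.25 and 2.28 in controls. Its 6 arrays with palmitic acid lay above the 6 without it, a separation not counted over all genes. It rose by 0.21 ± 0.04 without FABP4 and by 0.28 ± 0.04 with it (adjusted p = 0.0163 and 0.007). In the fit with the slide block these were 0.20 and 0.28, and only the rise with FABP4 passed (adjusted p = 0.247 and 0.0177). Cdkn1a, which encodes the related inhibitor p21, had 0.12 ± 0.07 and 0.21 ± 0.07 and did not pass (adjusted p = 0.296 and 0.116). The inhibitors did not all rise. Of the 4 tested, 2 lay below 0 without FABP4 and 1 with it, and the lowest values were -0.42 and -0.28. Their medians were 0.02 and 0.12.

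The levels of Fbxo5 were 0.39, 0.50 and 0.32 on the arrays with both agents, 0.29, 0.21 and 0.41 with palmitic acid, 0.90, 0.84 and 0.76 with FABP4 and 0.99, 0.76 and 1.03 in controls. Fbxo5 encodes Emi1, an inhibitor of the anaphase-promoting complex, and it fell by 0.62 ± 0.08 without FABP4 and by 0.43 ± 0.08 with it (adjusted p = 0.0035 and 0.0224). E2f2 lay at 1.40, 1.42 and 1.32 with both agents and at 1.25, 1.17 and 1.38 with palmitic acid, compared with 1.59, 1.56 and 1.58 with FABP4 and 1.77, 1.77 and 1.79 in controls. E2f2, a close relative of E2f1, fell by 0.51 ± 0.06 without FABP4 (adjusted p = 0.00124), and its FABP4 arrays lay between the arrays with palmitic acid and the controls. Anln, an organiser of the cleavage furrow, fell by 0.53 ± 0.08 and 0.44 ± 0.08 (adjusted p = 0.00549 and 0.0165). The thymidine salvage enzyme Tk1 fell by 0.44 ± 0.07 and 0.34 ± 0.07 (adjusted p = 0.00536 and 0.023), and the centrosomal kinase Nek2 by 0.49 ± 0.08 and 0.50 ± 0.08 (adjusted p = 0.00692 and 0.00935). Of the growth regulators, Myc had -0.21 ± 0.09 and -0.14 ± 0.09 and the D-type cyclin gene Ccnd2 -0.45 ± 0.17 and -0.18 ± 0.17, and neither passed in either comparison. Without FABP4 the sign of Myc turned with the slide block, to 0.15. With the slide as a fixed block 0 of the 95 passed for palmitic acid without FABP4, where 0.784% of all genes did. With FABP4 3 of the 95 passed, Cdkn1b, Nek2 and Anln, where 3.35% of all genes did, so this count is near the share of all genes.

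FABP4 was set against its absence in the same 2 settings, and 0 of the 37 genes passed in either one. Without palmitic acid 0.0171% of all tested genes passed, 0.00568% as lower and 0.0114% as higher. In limma 0 of the 37 had an unadjusted p under 0.05, where 1273 of all 17595 genes did. The median over the 37 was -0.02, and -0.01 over all genes, with the lowest adjusted p in limma of 0.788 for Tyms. In the fit with the slide block the 37 genes had a median of the other sign, 0.08, where that of all genes was 0.02. There 4 of the 37 lay below 0, against 25 without the block. Of all 17595 genes 7568 lay below 0 with the block and 9437 without it. In 1 of the 37 the FABP4 arrays lay wholly below the controls, as in 6.41% of all genes, and in 0 wholly above, as in 4.01%. Of the 3 FABP4 arrays of this comparison, 2 lay on another slide than the controls. With palmitic acid, where both groups lay on slide 2, 0% of all genes passed. Palmitic acid arrays 1 and 2 lay in another row of that slide than the arrays with both agents. In limma 2 of the 37 had an unadjusted p under 0.05, as had 1034 of all 17595 genes. The 2 were Ccnb1 with 0.15 ± 0.06 and Prc1 with 0.13 ± 0.06. Both had an adjusted p of 0.806 and did not pass. In 7 of the 37 genes the arrays with both agents lay wholly above those with palmitic acid, as in 11.4% of all genes, and in 1 wholly below, as in 3.1%. The mitotic median was 0.07 and the replication median 0.05, against 0.03 over all genes.

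Whether the effect of palmitic acid differed with FABP4 was tested as the interaction, in which 0 of the 37 genes and 0% of all genes passed in limma. At an unadjusted p under 0.05 there was 1 of the 37, against 1218 of all 17595 genes. It was Tyms, with -0.30 ± 0.13 (adjusted p = 0.713). Its levels were 1.43, 1.31 and 1.51 with both agents and 1.56, 1.54 and 1.59 with palmitic acid, against 1.31, 1.48 and 1.37 with FABP4 and 1.14, 1.45 and 1.12 in controls. The interaction of the mitotic genes had a median of 0.12, where that of all genes was 0.04. It lay above 0 in 18 of 21 mitotic genes, in 12 of 15 replication genes and in 10992 of all 17595 genes. With the slide as a fixed block these medians were -0.01 and 0.01, so the mitotic median changed sign with the slide. For Ccna2 the interaction in the fit without the slide was 0.15 with a 95% confidence interval from -0.08 to 0.37.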

How the data were processed

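RNA from 12 RAW264.7 samples was read on 1-colour Agilent arrays. Intensities were deposited as Feature Extraction output (version 10.7.3.1, per the file headers), in which the processed signal is background-subtracted within each array and not normalized between arrays; the deposited intensity table of the series held the same values, rounded. Flags for background, saturation and outliers were used as deposited. Probe positions are on mm9, per the file headers, and the exon or UTR of a probe was not analysed here.

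Control and outlier spots were left out, spots of a probe averaged, and log2 intensities taken minus the 75th percentile of each array (250 to 315 in intensity). A probe was kept if all 3 arrays of 1 or more groups read it well above background, and the brightest probe stood for a gene. The 17595 genes were fitted on 4 group means (8 residual degrees of freedom) with limma 3.58.1 in R 4.3.3, two-sided, with Benjamini-Hochberg adjustment over all genes. The code was tested on simulated data. The number of arrays limits the precision. Confidence intervals are at 95%.

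The genes and lists were chosen with earlier results of these data known. Values on each array were given for the 10 genes with the smallest adjusted p and for Ccnb1, Cdk1, Mki67, Top2a, Mcm5, Pcna, Ccne1, Ccnd1 and E2f1. In each role the genes that passed were named and, among the other cell cycle genes, the 4 with the smallest p in each comparison with Cdkn1a, Cdkn1b, Myc and Ccnd2. Further names, and the array values of Rrm2 and Tyms, were chosen after their values were seen. Alternatives were other scalings, backgrounds and filters, the mean of a gene's probes, the slide and the replicate number as blocks, and each array left out. Figures were drawn with matplotlib.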

Additional observations from a re-analysis of the deposited data

How the results depend on the processing

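For palmitic acid without FABP4 the 19 falls became 7 without a filter on dim probes, 0 with the slide as a fixed block, 0 with the slide as a random block, and 2 (1 lower) without scaling between arrays, where the median of all genes was 0.17. The difference between the mitotic and the replication median was -0.2812, -0.2153 and -0.2122 in the first 3 of these settings. For palmitic acid with FABP4 the 3 falls became 12 with quantile normalization, 15 with the percentile taken over detected probes alone, 5 with normexp background, 1 with the slide as a fixed block, and 0 without a filter, on slide 2 alone, with only the groups compared, and without scaling. The difference of medians was -0.1966 with normexp and -0.188 with the slide block and on slide 2 alone. With 1 array left out, the counts ran from 8 to 22 and from 0 to 4, and the differences from -0.2837 to -0.2493 and from -0.2485 to -0.188. For FABP4 alone and FABP4 with palmitic acid all counts stayed at 0 with 1 array left out, with differences from -0.04804 to -0.007965 and from -0.003456 to 0.05248. None of the 19 and 3 falls changed sign in any setting run. The setting without scaling, and the contrasts of palmitic acid with FABP4 and of FABP4 with control within 1 slide, were added after seeing the data. Otherwise the cause was not tested.

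Same-numbered arrays of different groups correlated between -0.0776 and 0.1678 in their deviations from the group means, 1 of 18 pairs above 0.1, so the numbers share only a name. With the replicate block 14 genes passed for palmitic acid without FABP4 and 1, Ccnb1, with FABP4. The palmitic acid and control groups share no slide, so group and slide cannot be told apart by those arrays alone.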
